A study of Homo sapiens with 9 samples.

Results

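The keratins of simple epithelium, with the keratins 10, 15, 17, 23 and 80 that colon epithelial lines can also carry, were followed in the 9 uCaco-2 libraries. The 10 genes are KRT7, KRT8, KRT10, KRT15, KRT17, KRT18, KRT19, KRT20, KRT23 and KRT80, taken by symbol from the 60591 rows of the counts table, and each of them was found. They were picked by name. uCaco-2 are undifferentiated cells of Caco-2, a line from a human colon adenocarcinoma. Cells of this line were kept for 24 h with 300 μM CoCl2, with 5 μM of an oxyquinoline derivative (OD, labelled Oxy), or in fresh medium, and 0.5% DMSO was stated for all 3 groups, although the stated OD stock alone would bring less, so that equal DMSO in the groups rests on that statement. CoCl2 is a salt that blocks the degradation of hypoxia-inducible factor, and OD inhibits the prolyl hydroxylases that mark this factor for degradation. Each group held 3 biological replicates of this single line, so that the p-values measure the spread between cultures and not between donors or lines.

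Keratins are the intermediate filament proteins of epithelial cells. A filament is built from pairs of a type I (acidic) and a type II (basic to neutral) chain, and an unpaired chain is degraded. Simple epithelia such as the gut lining make KRT8 (type II) with KRT18 and KRT19 (type I). KRT20 (type I) marks differentiated cells of the intestinal lining, and KRT7 (type II) marks many ductal epithelia but is usually low in colon cells. KRT10 and KRT15 (type I) are better known from the suprabasal and basal layers of stratified epithelia, and KRT17 (type I) from skin appendages and injured epidermis. KRT23 (type I) and KRT80 (type II) are less studied members of the family.

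The type II members lie in the keratin cluster of chromosome 12, and the type I members in that of chromosome 17, with the exception of KRT18 beside KRT8 (GENCODE release 44 on GRCh38). KRT8 (chr12:52897187-52949954, minus strand) and KRT18 (chr12:52948871-52952906, plus strand) overlap by 1084 bases in this annotation, on opposite strands. KRT15 (chr17:41513745-41522529) and KRT19 (chr17:41523617-41528308) are next to each other on the minus strand, 1087 bases apart with no annotated gene between them. KRT20 (chr17:40875889-40885242) and KRT23 (chr17:40922700-40937646), also on the minus strand, are 37.5 kb apart with no gene between them. KRT10 (chr17:40818117-40822614, minus strand), KRT17 (chr17:41619442-41624842, minus strand), KRT80 (chr12:52168996-52192014, minus strand) and KRT7 (chr12:52232520-52252186, plus strand) lie further from the other members. RefSeq windows around the start site (GRCh38.p14) were at hand for 3 of the 10 genes, and those of KRT20 and KRT10 are printed here because KRT20 was called lower with CoCl2 and differed between the treatments and KRT10 is a minor member without a called change. The capitals mark GCGTG, a core of the hypoxia response element, in KRT20 (chr17:40885193-40885492, minus strand) and the TATA box letters TATAAA in KRT10 (chr17:40822565-40822864, minus strand).
KRT20 promoter: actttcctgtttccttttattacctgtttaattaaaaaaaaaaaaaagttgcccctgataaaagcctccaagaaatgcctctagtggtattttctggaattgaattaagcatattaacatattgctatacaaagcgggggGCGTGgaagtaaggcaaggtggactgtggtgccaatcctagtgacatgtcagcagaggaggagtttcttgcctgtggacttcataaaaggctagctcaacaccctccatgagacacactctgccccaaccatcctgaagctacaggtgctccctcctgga
KRT10 promoter: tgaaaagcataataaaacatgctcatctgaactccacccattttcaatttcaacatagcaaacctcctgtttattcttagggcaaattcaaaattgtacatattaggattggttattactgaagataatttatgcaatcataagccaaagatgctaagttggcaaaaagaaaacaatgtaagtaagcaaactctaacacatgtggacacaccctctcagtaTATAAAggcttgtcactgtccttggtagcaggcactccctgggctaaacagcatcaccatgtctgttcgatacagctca
GCGTG begins 110 bases before the start of KRT20 and was found in 36.5% of 35116 windows of the same length. TATAAA begins 29 bases before the start of KRT10 and was found in 11.5% of the windows. Both strands were searched for these letters and for ACGTG (another core of the hypoxia response element, in 21.4% of windows), TGANTCA (the AP-1 motif, 7.71%), TGACNNNGC (a core of the antioxidant response element, 13.3%) and the heat shock element (0.49%), and none of the latter 4 was found in the 3 windows. The KRT8 window (chr12:52926420-52926719, minus strand) held none of the 6 motifs. This window lies inside the annotated span of KRT8 and not at the annotated start of the gene (52949954, minus strand). It was not matched to the transcript whose length is used for the KRT8 level, so other starts of KRT8 were not searched. These are matches of letters and not sites of binding.

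The libraries held 15998136 to 24209427 counts. Levels are given as CPM, the count of a gene relative to the library total, corrected by TMM factors for the composition of the library. These factors were 0.770 to 0.795 with CoCl2 against 1.11 to 1.15 in the other 6 libraries, so the CPM of a gene with CoCl2 is higher than its plain share of the counts. For that reason small differences with CoCl2 are also given by library size alone, a scaling under which the median of all tested genes lay at -0.55 (log2) against control, compared with -0.05 with TMM factors. A gene was called changed where its log2 fold change exceeded 1 in size and its adjusted p was under 0.05. Every fold change is on the log2 scale, followed by its standard error (SE).

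KRT8, KRT18 and KRT19, the classical simple epithelial trio, were among the most abundant transcripts of uCaco-2. By mean CPM over the 9 libraries they ranked 11, 20 and 95 among the 60591 symbols, while KRT10 ranked 7161 and the others lower. Per kilobase of the representative transcript, the level of KRT8 in control cells was 2789 ± 91.2 CPM per kb (SD, n = 3), that of KRT18 2026 ± 56.6 and that of KRT19 614 ± 24.9. KRT10 followed with 9.02 ± 0.797 CPM per kb, KRT15 with 2.97 ± 0.535 and KRT20 with 2.49 ± 0.219. KRT23, KRT17, KRT7 and KRT80 lay at means of 2.11, 1.50, 0.348 and 0.164 CPM per kb. In control cells KRT15 and KRT20 overlapped between libraries on this scale, while the other neighbours in this order did not. The first 3 places held in all groups. With CoCl2, the libraries of KRT20 overlapped those of KRT17, and those of KRT7 overlapped those of KRT80. With CoCl2 and with OD, KRT15 moved up to the 4th place, ahead of KRT10, at 13.8 ± 1.13 against 11.8 ± 0.882 CPM per kb with CoCl2 and 9.60 ± 0.114 against 7.67 ± 0.246 with OD. This depends on the length taken: with the length of all annotated exons, an alternative chosen after seeing the data, KRT10 stayed 4th in every group and KRT15 went from the 7th place in control cells to the 5th with CoCl2 and the 6th with OD. The trio made up nearly the whole of the keratin level: KRT8 took 51.2% of the summed level per kb in control, 51.6% in CoCl2 and 49.1% in OD. Together the 10 genes received 0.942% to 1.00% of all counts in control cells, 0.839% to 0.910% with CoCl2 and 0.862% to 0.910% with OD.

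**Figure D1:**
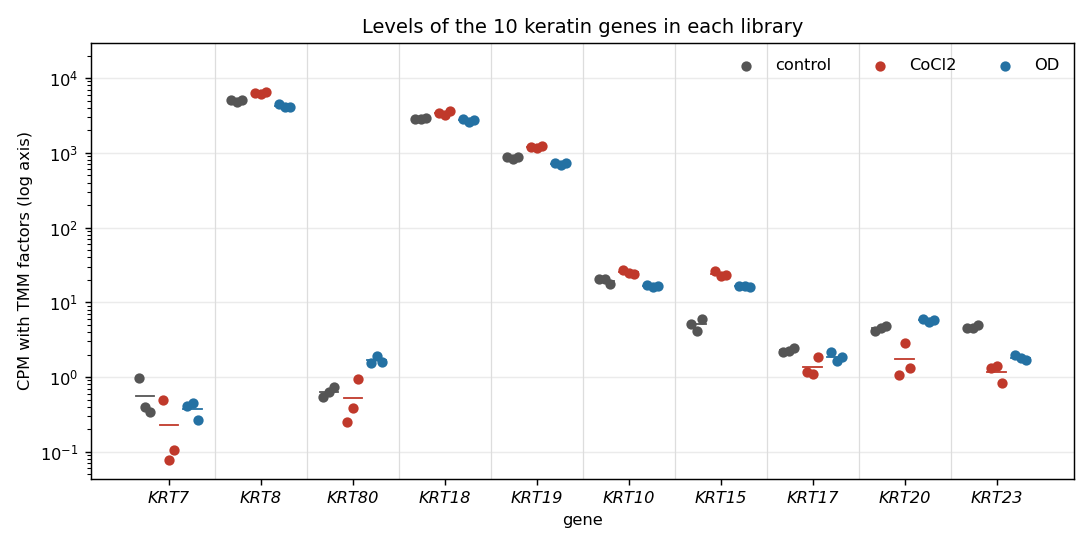
CPM with TMM factors (log axis) of the 10 genes in each library, with 1 point per library and a bar at the mean of each condition (3 libraries). KRT8, KRT18 and KRT19 lie above 600 CPM in every library, KRT15 is higher in every treated library than in the control libraries, and KRT23 is lower.

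Among the 9 members that passed the expression filter, 1 was called higher with CoCl2 (KRT15) and 2 were called lower (KRT20 and KRT23). With OD, 2 were called higher (KRT15 and KRT80) and 1 lower (KRT23). Over all 15944 tested genes, CoCl2 gave 19.9% called higher and 23.4% called lower, and OD 9.09% and 4.16%. By the adjusted p alone, 8 of the 9 members passed with CoCl2 and 7 with OD, beside 83.2% and 65.6% of all tested genes. The median fold change of the 9 was 0.26 with CoCl2 and -0.23 with OD, and that of all tested genes -0.05 and -0.01. By library size alone the median of the members with CoCl2 turned to -0.24, beside -0.55 for all tested genes. Between the treatments, 0 members were called higher with CoCl2 than with OD and 2 lower (KRT20 and KRT80), beside 17.5% and 23.8% of all genes. By the adjusted p alone, 8 members differed between CoCl2 and OD, beside 83.5% of all genes. Both comparisons with control use the same 3 control libraries. Single genes whose groups did not overlap had an exact permutation p of 0.1, the smallest that 3 libraries against 3 allow, so that significance rests on the fit across all genes (edgeR, Benjamini-Hochberg adjustment).

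**Figure D2:**
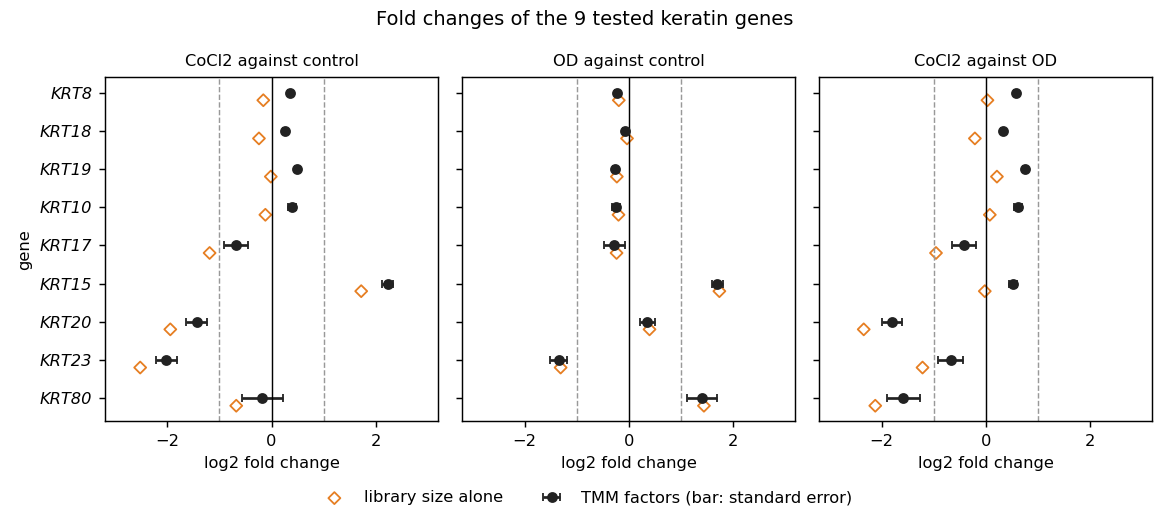
Log2 fold changes of the 9 tested genes (x axis) in the 3 comparisons, with TMM factors (filled points, bars are the SE) and with library size alone (open diamonds). Dashed lines mark a change of 1. KRT15 and KRT23 lie on the same side in both treatments, KRT20 on opposite sides, and with CoCl2 the points of KRT8, KRT18, KRT19 and KRT10 change sign between the scalings.

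KRT8, the type II partner of the trio, had 5020, 4796 and 5112 CPM in the control libraries, 6234, 6161 and 6593 with CoCl2, and 4434, 4156 and 4139 with OD. The 3 groups did not overlap, with CoCl2 highest and OD lowest. The difference from control was 0.35 with CoCl2 (SE 0.041, adjusted p = 1.22e-11) and -0.23 with OD (SE 0.041, adjusted p = 1.33e-06), both below the fold needed for a call. The direction with CoCl2 depends on the scaling: as a plain share of the counts KRT8 fell from 5541 ± 177 to 4965 ± 210 CPM without TMM factors (-0.16 by library size alone, adjusted p = 7.58e-05). The lower level with OD does not turn with the scaling (-0.19 by library size alone).

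KRT18, the type I partner of KRT8 and a substrate of caspases during apoptosis, had 2848, 2791 and 2949 CPM in control cells. It had 3404, 3251 and 3656 CPM with CoCl2, and 2798, 2614 and 2762 with OD. The CoCl2 libraries lay above all others, whereas OD and control overlapped. The fold change was 0.26 with CoCl2 (SE 0.041, adjusted p = 4.43e-08) and turned to -0.24 by library size alone (adjusted p = 9.6e-08). With OD it was -0.07 (SE 0.041, adjusted p = 0.12), with a 95% interval from -0.15 to 0.01.

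KRT19, the smallest type I keratin, had 868, 814 and 879 CPM in control cells, 1210, 1160 and 1230 with CoCl2, and 719, 685 and 723 with OD. No library of one group fell among those of another. The fold change was 0.49 with CoCl2 (SE 0.040, adjusted p = 7.11e-18), the largest of the trio, but -0.01 by library size alone (adjusted p = 0.718). With OD it was -0.27 (SE 0.040, adjusted p = 2.22e-08). With TMM factors, KRT8, KRT18 and KRT19 were all higher with CoCl2 than with OD, by 0.58, 0.34 and 0.76 (adjusted p at most 5.46e-11). By library size alone the difference of KRT8 vanished (0.03, adjusted p = 0.399), that of KRT18 turned to -0.21 and that of KRT19 was 0.21.

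A ratio of genes within a library does not depend on the scaling, so the balance of KRT8 to KRT18 was taken per kilobase in each library. It was 1.40, 1.36 and 1.37 in control cells, 1.45, 1.50 and 1.43 with CoCl2, and 1.26, 1.26 and 1.19 with OD. The means were 1.38 ± 0.0179, 1.46 ± 0.0372 and 1.23 ± 0.0406 (SD, n = 3), and no library of one condition lay within the range of another. The ratio stood highest with CoCl2 and lowest with OD, although both changes are small. The summed level of the 7 type I members relative to the 3 type II members was 0.945 to 0.959 for control, 0.916 to 0.947 for CoCl2 and 1.01 to 1.08 for OD. The absolute ratio depends on the length taken for each gene: with the length of all annotated exons it was 0.775 for control, 0.822 for CoCl2 and 0.695 for OD, an alternative chosen after seeing the data, so that KRT18 then exceeded KRT8, and the order of the groups was kept.

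**Figure D3:**
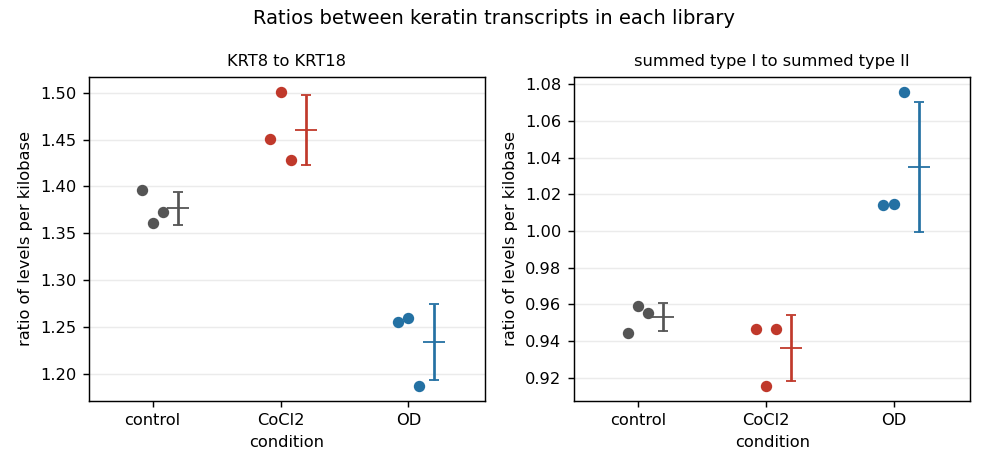
Ratio of KRT8 to KRT18 (left) and of summed type I to summed type II members (right), both of levels per kilobase, with 1 point per library and the mean and SD (3 libraries) beside the points. The axes do not start at 0. The KRT8 to KRT18 ratio lies between 1.43 and 1.50 with CoCl2, between 1.36 and 1.40 in control cells and between 1.19 and 1.26 with OD.

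KRT8 and KRT18 have many processed pseudogenes, which can receive their reads. Of the 1710 windows of 75 bases in the KRT8 transcript taken here, 18.8% also occur in another gene, and 6.5% of those of KRT18. For KRT17 this share was 4.57%, and for the other 7 members 0. The summed counts of the 51 KRT8 pseudogenes in the table, which are not part of the KRT8 count, equalled 3.16% to 3.45% of it in every library, and those of the 67 KRT18 pseudogenes equalled 0.481% to 0.732% of the KRT18 count. The most abundant, KRT8P36, had fold changes of 0.28 with CoCl2 and -0.32 with OD, beside 0.35 and -0.23 for KRT8. With the pseudogene counts added, the KRT8 to KRT18 ratio was 1.42 for control, 1.50 for CoCl2 and 1.27 for OD. The strand setting of the counting is not given in the sources used here, and 17.1% of the exon bases of KRT18 lie in exons of KRT8 on the other strand, so counts in that stretch cannot be assigned with certainty.

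Of the minor members, KRT15 changed most in the upward direction. It had 95, 85 and 107 counts in the control libraries, 416, 287 and 438 with CoCl2, and 366, 372 and 305 with OD. These correspond to 5.10, 4.16 and 5.99 CPM in control cells, 25.8, 22.2 and 22.9 with CoCl2, and 16.6, 16.5 and 16.2 with OD. Every treated library lay above every control library, and the CoCl2 libraries above the OD libraries. The fold change was 2.23 with CoCl2 (SE 0.101, adjusted p = 7.64e-30), a 4.69-fold rise, and 1.70 with OD (SE 0.104, adjusted p = 9.77e-23), a 3.25-fold rise. CoCl2 exceeded OD by 0.53 (SE 0.080, adjusted p = 2.57e-08), but the excess vanished by library size alone (-0.02, adjusted p = 0.821), where the levels without TMM factors were 18.5 ± 1.20 and 18.8 ± 0.181 CPM. KRT19, the adjacent gene, had 0.49 and -0.27.

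KRT23 fell in both treatments. It had 85, 92 and 88 counts in control cells, 21, 18 and 16 with CoCl2, and 44, 40 and 32 with OD. In CPM, the 3 control libraries lay at 4.57, 4.50 and 4.93, the CoCl2 libraries at 1.30, 1.39 and 0.84, and the OD libraries at 2.00, 1.77 and 1.70. The control libraries were highest and the CoCl2 libraries lowest, without overlap. The fold change was -2.02 with CoCl2 (SE 0.200, adjusted p = 3.26e-14), which is 4.05-fold lower, and -1.35 with OD (SE 0.168, adjusted p = 1.95e-10), which is 2.54-fold lower. Between the treatments it was -0.67 (SE 0.237, adjusted p = 0.00806), not called, and -1.22, called, by library size alone.

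KRT20, called lower with CoCl2 and not with OD, was also called between the treatments. Its counts were 76, 92 and 87 in control cells, 17, 37 and 25 with CoCl2, and 132, 124 and 109 with OD. The CPM were 4.08, 4.50 and 4.87 in control cells, 1.06, 2.86 and 1.31 with CoCl2, and 5.99, 5.50 and 5.80 with OD. All CoCl2 libraries lay below and all OD libraries above control, with replicate 2 of CoCl2 closest to control. The fold change with CoCl2 was -1.44 (SE 0.199, adjusted p = 2.7e-09), which is 2.71-fold lower, and it ranged from -1.90 to -1.20 when each library was left out in turn, the former without replicate 2 of CoCl2. With OD it was 0.36 (SE 0.144, adjusted p = 0.0246), not called, and the adjusted p reached 0.0814 when a library was left out. The difference between the treatments was -1.80 (SE 0.187, adjusted p = 3.83e-13), called, 3.48-fold lower with CoCl2 than with OD. KRT20 ranked 6th of the 10 per kilobase in all groups with the representative transcript, and 5th, 6th and 5th with all annotated exons, with 2.49 ± 0.219, 0.965 ± 0.541 and 3.19 ± 0.137 CPM per kb in the order control, CoCl2, OD. With CoCl2 its libraries overlapped those of KRT17 and KRT23 on this scale. KRT23, its neighbour on chromosome 17, was also called lower with CoCl2, but was lower with OD where KRT20 was not.

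KRT80 was low throughout, with 10, 13 and 13 counts in control cells, 4, 5 and 18 with CoCl2, and 34, 43 and 30 with OD. Its CPM were 0.54, 0.64 and 0.73 in control cells, 0.25, 0.39 and 0.94 with CoCl2, and 1.54, 1.91 and 1.60 with OD. The OD libraries lay above all others, and the CoCl2 libraries spread on both sides of control. The fold change with OD was 1.40 (SE 0.291, adjusted p = 2.46e-05), a 2.65-fold rise. With CoCl2 it was -0.18 (SE 0.392, adjusted p = 0.677), with a 95% interval from -0.95 to 0.59, and it moved from -1.01 without replicate 3 of CoCl2 to 0.18 without replicate 1, so no direction can be given. CoCl2 was below OD by 1.58 on the log2 scale (SE 0.313, adjusted p = 6.92e-06), called, with a range from -2.42 without replicate 3 of CoCl2 to -1.23 without replicate 1.

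KRT17 had 40, 45 and 44 counts in control cells, 19, 14 and 35 with CoCl2, and 47, 37 and 35 with OD. At 2.15, 2.20 and 2.46 CPM in control cells, 1.18, 1.08 and 1.83 with CoCl2 and 2.13, 1.64 and 1.86 with OD, the CoCl2 libraries lay below control, and replicate 3 of CoCl2 lay within the OD range. The fold change with CoCl2 was -0.69 (SE 0.227, adjusted p = 0.00487), not called, and -1.19 by library size alone, called. With OD it was -0.27 (SE 0.201, adjusted p = 0.231), and between the treatments -0.41 (adjusted p = 0.0921). In the annotation 10.2% of the exon bases of KRT17 overlap a gene on the other strand.

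KRT10 had 20.4, 20.2 and 17.4 CPM in control cells, 27.5, 24.9 and 23.8 with CoCl2, and 17.0, 16.0 and 16.4 with OD. The groups did not overlap, with the order CoCl2, control, OD that KRT8 and KRT19 also had. The fold change was 0.39 with CoCl2 (SE 0.077, adjusted p = 6.78e-06) but -0.12 by library size alone (adjusted p = 0.144), and -0.24 with OD (SE 0.078, adjusted p = 0.00696). CoCl2 exceeded OD by 0.62 (SE 0.077, adjusted p = 7.65e-11), but only by 0.08 by library size alone (adjusted p = 0.349). KRT7 was the only member below the expression filter, with 18, 8 and 6 counts in control cells, 8, 1 and 2 with CoCl2 and 9, 10 and 5 with OD. Without the filter its fold change was -1.34 with CoCl2 (SE 0.516, adjusted p = 0.0243) and -0.57 with OD (adjusted p = 0.414), at counts where the libraries of all groups overlapped.

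The likeness of patterns was measured by Pearson's r of log2 CPM over the 9 libraries, as a description. The libraries fall into 3 conditions, so r reflects mostly their means and the scaling that all genes share. The tested genes closest to KRT8 were PLPP2 (r = 0.995), ZNHIT1 (0.995) and HPS1 (0.994). KRT19 came 11th of 15943 for KRT8 (0.991), and KRT18 687th (0.957). For KRT18 the closest were HTRA2 (0.980), PPID (0.979) and SERPINA1 (0.979), with KRT19 at rank 51 and KRT8 at rank 79. For KRT19 they were PSMC3, SF3B2 and PRKAB1 (0.997 each), with KRT8 at rank 77. For KRT20 they were AC090114.2 (0.990), the keratin pseudogene KRT18P5 (0.982), of which 37% of the exon bases also lie in exons of KLHL22, and CCDC134 (0.982), while its r with KRT18 was -0.921.

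The other 45 keratin genes of the table were nearly silent in control cells, with 82 to 87 counts in sum per library against 160278 to 172372 for the 10 members. They summed to 340 to 464 counts with CoCl2 and 249 to 402 with OD. Of these 45, 9 had no count in any library and 7 were tested. With CoCl2, 6 of the 7 were called higher and 0 lower, and with OD 3 were called higher and 0 lower. Genes this low pass the filter through the group in which they are high, so these counts are a description and do not compare with the shares over all genes. KRT6A, a keratin of activated and hyperproliferative epidermis, rose from 12, 11 and 11 counts to 215, 177 and 256 with CoCl2 (4.48, SE 0.206, adjusted p = 8.27e-23) and to 247, 166 and 125 with OD (3.81, SE 0.220, adjusted p = 7.93e-19). Every treated library lay far above the control libraries. Of the KRT6A windows, 26.2% also occur in other genes, mainly KRT6C, which had 0 to 6 counts.

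**Figure D4:**
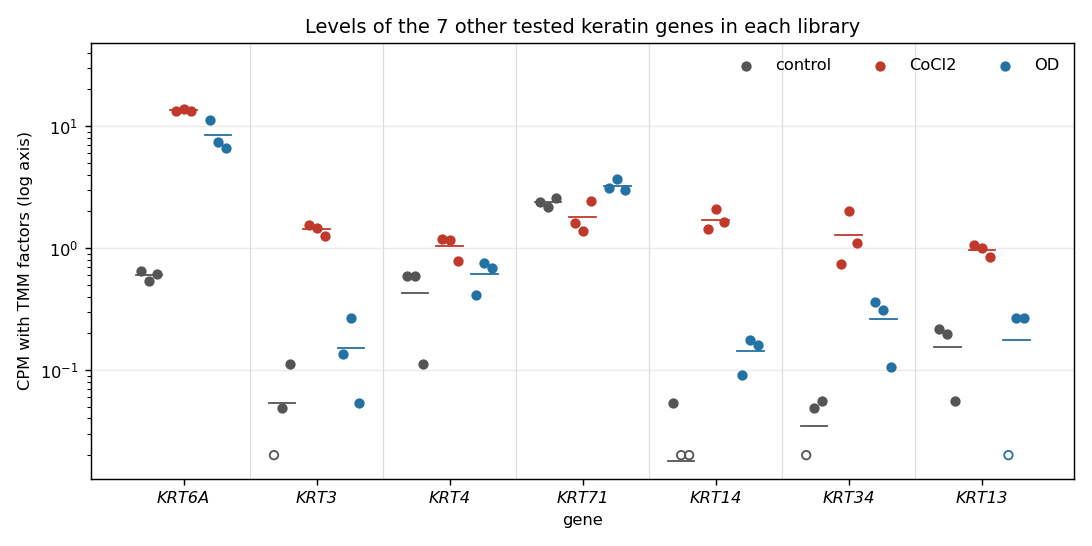
CPM with TMM factors (log axis) of the 7 other tested keratin genes in each library, with a bar at the mean of each condition. Open circles are libraries with 0 counts, drawn at a fixed height near the bottom. KRT6A is higher in every treated library than in control cells, and KRT3, KRT14, KRT34 and KRT13 are higher in every CoCl2 library than in the others.

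KRT14, the basal-layer partner of KRT5, had 1, 0 and 0 counts in control cells, 23, 27 and 31 with CoCl2 and 2, 4 and 3 with OD. With a single control count, the ratio of CoCl2 to control was 95.7 with a 95% counting interval from 16.7 to 3828, and that of OD 8.07 (1.12 to 354). KRT34, a hair keratin, had 0, 1 and 1 counts in control cells, 12, 26 and 21 with CoCl2 (ratio 34.9, 9.23 to 295) and 8, 7 and 2 with OD (7.63, 1.81 to 68.0). KRT3, a corneal keratin, had 0, 1 and 2 counts in control cells, 25, 19 and 24 with CoCl2 (26.8, 8.79 to 133) and 3, 6 and 1 with OD (2.99, 0.770 to 16.9). KRT13, of internal stratified epithelia, rose from 4, 4 and 1 counts to 17, 13 and 16 with CoCl2 (2.55, adjusted p = 3.74e-06) and had 0, 6 and 5 with OD. It passed the filter through the CoCl2 libraries, so this adjusted p is a description only. KRT4, its type II partner, was called higher with CoCl2 with TMM factors (1.21, adjusted p = 0.00314) but not by library size alone (0.70, adjusted p = 0.0871). KRT71, of the hair root sheath, had -0.34 (adjusted p = 0.13) with CoCl2 and 0.47 (adjusted p = 0.0174) with OD, neither called. With CoCl2 it had -0.84 by library size alone (adjusted p = 0.000305), not called. On that scaling CoCl2 against OD was -1.35 (adjusted p = 1.67e-08), called, which it was not with TMM factors. KRT16, below the filter, had 0 counts in each control library, 11, 14 and 11 with CoCl2 and 2, 2 and 1 with OD. KRT5, the usual partner of KRT14 and KRT15, was below the filter, with 0 counts in each control library (a count of 0 allows up to 3), 3, 3 and 0 with CoCl2 and 9, 5 and 5 with OD, so that every OD library lay above control. Even the highest of these genes, KRT6A, was far below KRT8 in every library.

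The identity of the cells was checked against marker lists. All 7 epithelial and enterocyte markers were tested and summed to 2953 to 3017 CPM in control libraries, 4305 to 4400 with CoCl2 and 3523 to 3612 with OD. Their median fold change with CoCl2 was 0.36 with TMM factors and turned to -0.14 by library size alone. The direction of the median and the size of the rise in the sum therefore depend on the scaling. Among them VIL1, which bundles actin in the brush border, was called lower with CoCl2 (-2.45, adjusted p = 1.24e-51), with -0.43 with OD. CLDN4, a tight junction protein, was called higher with CoCl2 (2.86) and OD (1.01). LGALS4 was near 0 in control cells with 9, 5 and 5 counts and had 6, 33 and 12 with CoCl2, highest in the same replicate 2 in which KRT20 was highest. LGALS4 was called higher with CoCl2 with TMM factors, but not by library size alone (1.16, adjusted p = 0.134). With OD it was not called (1.50 by library size alone, adjusted p = 0.0658). The 7 stratified epithelium markers, of which KRT14 and KRT5 are 2, summed to 0.490 to 1.02 CPM in control cells, 4.82 to 5.72 with CoCl2 and 3.56 to 4.22 with OD. The higher sum came mostly from KRT14 and TP63 with CoCl2 and mostly from SPRR3 with OD, so it is not a shift shared by the list. Their members DSG3, IVL and KRT1 were at or near 0. The fibroblast markers summed to 22.9 to 26.8, 18.3 to 20.8 and 31.9 to 33.3 CPM, with COL1A2 and DCN at 0 to 2 counts. Of these 6 markers 4 were tested, with 1 called lower with CoCl2 and 1 higher with OD, beside 23.4% and 9.09% of all tested genes. Between the treatments, 1 was higher and 3 were lower with CoCl2, beside 17.5% and 23.8%. By library size alone PDGFRB (-2.82) and LUM (-1.65) were called lower with CoCl2, and LUM (1.82) higher with OD. The blood cell markers summed to 1 to 9 counts. The part of these shifts in the keratin results was not tested, and fewer cells of a kind and less RNA per cell cannot be told apart in these bulk samples.

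Keratin filaments are anchored at desmosomes by desmoplakin (DSP). Of 13 desmosome genes 8 were tested, and only DSP was called, higher with CoCl2 (1.14, adjusted p = 9.08e-36) and with OD (1.07, adjusted p = 2.02e-33). It had 11097, 11699 and 10114 counts in control cells, 20903, 15725 and 24790 with CoCl2 and 27315, 26519 and 23060 with OD. By library size alone the CoCl2 value was 0.63 and no longer called. The median of the 8 was 0.05 with CoCl2, which turned to -0.46 by library size alone, and 0.33 with OD. Plakoglobin (JUP), which joins DSP to the cadherins, was higher by 0.86 with CoCl2 and 0.55 with OD, below the fold for a call. Among 9 tested plakins and keratin linkers, a list that also holds DSP, 2 were called higher and 3 lower with CoCl2. With OD, 3 were called higher and 0 lower, and the medians were 0.15 with CoCl2 (-0.35 by library size alone) and 0.63 with OD. Over all tested genes, the shares called higher and lower were 19.9% and 23.4% with CoCl2, and 9.09% and 4.16% with OD. Plectin (PLEC), which links intermediate filaments to hemidesmosomes and other filaments, was called higher in both (1.57 and 1.09). Periplakin (PPL), a linker at the cell border, was called lower with CoCl2 (-1.50) and had 0.81 with OD, and the difference between the treatments was -2.31 (adjusted p = 1.81e-44). The keratin-binding proteins TCHP and FBF1 were called lower with CoCl2 (-1.39 and -3.78), where FBF1 fell from 84, 84 and 48 counts to 4, 5 and 4. Epiplakin (EPPK1), a keratin-binding plakin, was called higher with OD alone among the comparisons with control (1.30), and differed from CoCl2 (-1.33, adjusted p = 1.03e-19).

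Of the other intermediate filament genes, 8 were tested. With CoCl2, 2 were called higher and 3 lower, and with OD 1 higher and 2 lower, with medians of -0.67 and -0.04. The shares called higher and lower over all tested genes were 19.9% and 23.4% with CoCl2, and 9.09% and 4.16% with OD. By library size alone the tally with CoCl2 was 1 higher and 6 lower, with SYNM (-1.05), BFSP1 (-1.20) and VIM added to the calls. The nuclear lamins split: LMNA, which encodes lamins A and C, was called higher with CoCl2 (1.37, or 0.86 and not called by library size alone), while LMNB1 (-2.58) and LMNB2 (-1.74) were called lower. With OD, LMNB1 was called lower (-1.05), and LMNA (0.16) and LMNB2 (-0.54) were not called. Nestin (NES), a filament of progenitor cells, was called lower with CoCl2 (-2.04) and had -0.23 with OD. INA was called higher with both (1.70 and 1.15) at no more than 17 counts, and BFSP1 lower with OD (-1.28). Vimentin (VIM), the mesenchymal filament, had 93, 79 and 86 counts in control cells, 40, 33 and 67 with CoCl2 (-0.64, adjusted p = 0.000344, not called, and -1.15, called, by library size alone) and 123, 104 and 110 with OD (0.23, adjusted p = 0.139).

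Among 11 tested signalling proteins that bind keratins, the 14-3-3 genes SFN (1.16) and YWHAG (1.65) were called higher with CoCl2 and 0 genes were called with OD, where 9 passed the adjusted p alone. The shares called over all tested genes were 19.9% higher and 23.4% lower with CoCl2, and 9.09% and 4.16% with OD. With OD, 65.6% of all tested genes passed the adjusted p alone. The medians were 0.53 with CoCl2, which fell to 0.02 by library size alone, and -0.03 with OD. By library size alone SFN was at 0.66 and not called, and TRADD, an adaptor of death receptors that binds KRT14 and KRT18, was called lower (-1.36).

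Transcription factors of epithelial differentiation lay at a median of 1.46 (CoCl2) and 0.63 (OD). Of 17 listed, 16 were tested, 10 were called higher and 1 lower with CoCl2, and 5 higher and 0 lower with OD (8 higher and 1 lower with CoCl2 by library size alone). Over all tested genes, the shares called higher and lower were 19.9% and 23.4% with CoCl2, and 9.09% and 4.16% with OD. The count with CoCl2 includes TP63, which passed the filter through the CoCl2 libraries. KLF4, a zinc finger factor of barrier epithelia, rose from 66, 81 and 66 counts to 394, 321 and 461 with CoCl2 (2.71) and to 431, 416 and 311 with OD (2.28). OVOL1 (3.01 and 1.44) and ELF3 (1.93 and 1.13) were called higher with both as well, and EHF (2.38), KLF5 (2.11) and TFAP2A (2.03) with CoCl2. TFAP2C was called higher with OD (1.39) and differed from CoCl2 (-1.16, adjusted p = 8.48e-26). TP63, which encodes the master factor of stratified epithelia, had 0, 0 and 1 counts in control cells, 39, 33 and 42 with CoCl2 (ratio 135, counting interval 23.7 to 5368) and 0, 1 and 0 with OD. CDX2, the intestinal homeobox factor, had 0.18 and 0.30 and was not called.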

How the data were processed

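Messenger RNA of uCaco-2 cells was measured in 9 libraries, 3 per condition, read as 75 bases from 1 end. The authors checked quality with FastQC 0.11.9, trimmed with cutadapt 2.10, mapped on GRCh38 with STAR 2.7.5b and deposited whole-number read counts for each gene symbol, not normalized. The counting tool, its strand setting and its treatment of reads with several matches are not given in the sources used here.

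From these counts edgeR 4.0.16 (R 4.3.3) computed TMM factors and a robust quasi-likelihood fit over 9 libraries, with 1 mean per condition. Its filter kept 15944 of 60591 symbols, and p-values were adjusted by Benjamini-Hochberg over all of them. Calls need a log2 fold change over 1 in size with an adjusted p under 0.05, and 95% intervals are normal ones from the SE. CPM are counts scaled by TMM factors. Likeness used log2 CPM with a prior count of 2. Single genes also had a two-sided exact permutation test. Lengths came from the MANE Select transcripts of GENCODE release 44, promoters from RefSeq. Counting intervals (95%, exact) cover counting error only.

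The members and gene lists were chosen with earlier results of these data known. The genes named are the members, called genes of each list (up to 8 by size of change), the most abundant pseudogene and the 3 genes closest to KRT8, KRT18, KRT19 and KRT20. KRT5, KRT16, KRT71, TFAP2C, KRT6C, JUP, VIM, VIL1, LGALS4, CDX2 and the marker genes at 0 were added after their values were seen. Some listed genes are not reported here. Pairs of replicates differed beyond sampling noise (chi-square per degree of freedom 1.74 to 3.05), so no pair was counted as a single library. Replicate numbers do not pair the samples (correlations of deviations -0.0049 to 0.0376). The fits were tested on simulated data. Alternatives were other tools (DESeq2 1.42.0), scalings, filters, a replicate block, left-out libraries, thinned counts, glmTreat and added pseudogene counts. At these depths a gene near 10 counts such as KRT80 had a standard error of 0.291 to 0.392, against 0.041 for KRT8.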

Additional observations from a re-analysis of the deposited data

How the results depend on the processing

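The 9 members were refitted in 3 comparisons under 20 alternatives, and 526 of the 537 values kept their direction and their side of the call. By library size alone, with CoCl2 against control, KRT8 turned to -0.16, KRT10 to -0.12, KRT18 to -0.24 and KRT19 to -0.014, and with CoCl2 against OD, KRT15 turned to -0.020 and KRT18 to -0.21, since this setting leaves out the composition factors and shifts all genes alike. It split the calls over all genes with CoCl2 at 23.9% higher, against 46.0% with TMM factors, and between the treatments at 18.3% against 42.4%, and added calls of KRT17 with CoCl2 and of KRT23 between the treatments. KRT80 with CoCl2 ranged from -1.01 to 0.18 when each library was left out, and it turned sign without replicate 1 of CoCl2. The 3 calls with CoCl2 and the 3 with OD against control each kept their direction and call in every fit that left out a library. glmTreat, which tests against a log2 fold change of 1, called 1 member with OD in place of 3 (KRT15), and a minimum of 10 counts in every library left KRT80 untested and 1 call between the treatments. The KRT8 to KRT18 ratio moved to 1.42, 1.50 and 1.27 in control, CoCl2 and OD with pseudogene counts added, and to 0.775, 0.822 and 0.695 with lengths of all annotated exons, chosen after seeing the data. With the replicate block, 3 members were called with CoCl2, 3 with OD and 2 between the treatments, as without it. Depth limits KRT7 and KRT80, which had at most 18 and 43 counts in a library.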

Other observations

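Some keratin pseudogenes had fold changes far from that of their parent gene, a difference that was not tested. The table lists 148 keratin pseudogenes and 24 of them were tested. With CoCl2, 6 were called higher and 1 lower (3 higher and 1 lower by library size alone), and 0 with OD, where 6 passed the adjusted p alone. Pseudogenes as low as KRT18P7 pass the filter through the group in which they are high. These counts are therefore a description and do not compare with the shares over all genes. KRT18P7 had 3, 0 and 2 counts in control cells, 21, 16 and 26 with CoCl2 and 4, 3 and 1 with OD, and the fold change was 3.80 with CoCl2 while KRT18 itself had 0.26. KRT18P5 had 9, 12 and 12 counts in control cells, 2, 5 and 3 with CoCl2 and 23, 20 and 19 with OD, with a fold change of -1.45 with CoCl2, called, and 0.75 with OD (adjusted p = 0.0362), not called. In the annotation 37% of the exon bases of KRT18P5 lie in exons of KLHL22 on the same strand, so its counts may hold reads of KLHL22. Both pseudogenes were chosen after their values were seen. KRT7-AS, the antisense gene of KRT7, had 0 to 2 counts per library.

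SPRR3, a cornified envelope precursor and the third tested gene among the stratified epithelium markers, had 18, 10 and 14 counts in control cells, 16, 10 and 17 with CoCl2 (0.27, adjusted p = 0.43) and 79, 83 and 57 with OD (2.21, adjusted p = 2.94e-13). It differed between the treatments (-1.94, adjusted p = 1.3e-11), opposite to KRT14 and TP63 of the same list.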
